A study of Homo sapiens with 12 samples.

Results

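Collagen chain genes, the genes with a symbol of the form COL, a number, A and a number, were followed through 4 HEK293T lines that differ in the EZH2 they were given. This choice by symbol took 30 of the 14438 genes with RNA-Seq counts, among them 9 fibrillar, 7 network and 14 other collagen genes. The rule uses no measured value, but it was chosen with earlier results of these data known. HEK293T is a human embryonic kidney cell line. All lines were infected with lentivirus, selected with blasticidin and kept their own EZH2 gene. Samples labelled EZH2 WT carried introduced wild-type EZH2, and the EZH2 GOF mutants carried EZH2 Y641F or EZH2 A677G. The EZH2 LOF mutant carried the double change H689A/F667I, and the lines are called EZH2 WT, Y641F, A677G and LOF. Each line had 3 biological replicates, grown without further treatment. According to the methods, selection was meant to leave monoclonal populations, so that the introduced EZH2 and the line it was in cannot be told apart. In bulk RNA, fewer cells with a transcript and less of it per cell cannot be told apart either.

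EZH2 is the catalytic subunit of PRC2, which places the repressive H3K27me3 mark on chromatin. Collagens are extracellular proteins in which several chains wind into a helix, and each chain has a gene of its own. Fibrillar collagens assemble into the fibres that give connective tissue its tensile strength. Network collagens form sheets, with type IV collagen as the scaffold of basement membranes, including the filter of the kidney glomerulus. The other types decorate fibrils, form beaded filaments or anchoring fibrils, or span the cell membrane.

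The genes of type IV collagen lie in head-to-head pairs on opposite strands, COL4A1 with COL4A2 on chromosome 13, COL4A4 with COL4A3 on chromosome 2 and COL4A6 with COL4A5 on the X chromosome. The bases between the starts of each pair are shown because COL4A1, COL4A2 and COL4A4 were lower in both EZH2 GOF mutants, while COL4A5 passed no test. They are given 5′ to 3′ on the plus strand of GRCh38, with the first gene of the name to the left, and capitals mark GGGCGG and CCAAT on either strand. The first interval is chr13:110307158-110307283 and holds 20 CpG dinucleotides in 126 bases. The second is chr2:227164454-227164623, with 12 CpG in 170 bases. The third, chrX:108439588-108439837, gives the 250 bases next to COL4A5 of the 340 between the starts, with 8 CpG. The starts are those of RefSeq, apart from those of COL4A4 and COL4A6, which are the outer ends of the genes in GENCODE.
COL4A1/COL4A2: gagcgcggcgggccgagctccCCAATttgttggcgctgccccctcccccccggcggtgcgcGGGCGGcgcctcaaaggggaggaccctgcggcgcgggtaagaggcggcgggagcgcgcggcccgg
COL4A4/COL4A3: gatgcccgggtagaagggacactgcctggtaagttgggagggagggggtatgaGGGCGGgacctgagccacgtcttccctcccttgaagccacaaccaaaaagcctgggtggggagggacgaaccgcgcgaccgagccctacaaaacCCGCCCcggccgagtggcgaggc
COL4A6/COL4A5: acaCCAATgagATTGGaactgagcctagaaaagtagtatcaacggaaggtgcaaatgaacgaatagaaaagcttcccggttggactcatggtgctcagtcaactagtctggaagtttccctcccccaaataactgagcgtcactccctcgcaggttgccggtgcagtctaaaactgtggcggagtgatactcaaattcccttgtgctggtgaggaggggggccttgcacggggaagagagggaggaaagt

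For the fibrillar genes COL5A1 and COL27A1, both lower in the EZH2 GOF mutants, the 250 bases before the RefSeq start are given on the strand of the gene, which is the plus strand, with the same capitals. They are chr9:134641555-134641804 with 29 CpG for COL5A1 and chr9:114155287-114155536 with 13 CpG for COL27A1.
COL5A1: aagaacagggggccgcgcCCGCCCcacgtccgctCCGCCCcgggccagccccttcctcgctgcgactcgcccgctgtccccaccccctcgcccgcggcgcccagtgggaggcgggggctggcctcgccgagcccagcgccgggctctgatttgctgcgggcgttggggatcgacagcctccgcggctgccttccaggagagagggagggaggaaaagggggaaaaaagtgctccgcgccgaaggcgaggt
COL27A1: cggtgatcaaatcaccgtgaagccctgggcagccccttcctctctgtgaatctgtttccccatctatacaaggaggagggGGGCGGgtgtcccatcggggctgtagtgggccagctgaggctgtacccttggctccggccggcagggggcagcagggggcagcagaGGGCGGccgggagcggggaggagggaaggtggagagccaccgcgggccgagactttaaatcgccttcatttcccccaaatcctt

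Of the 30 genes, 23 had a RefSeq promoter of 300 bases, from 250 before to 50 after the start, on GRCh38. The genes COL1A1, COL2A1, COL3A1, COL5A2, COL6A1, COL9A3 and COL14A1 had no entry. COL4A1 and COL4A2 held 45 CpG each, COL25A1 38, COL5A1 37, COL4A4 29 and COL27A1 16. COL12A1, COL21A1 and COL19A1, lower in A677G only, held 29, 14 and 11. Among genes lower in neither GOF mutant, COL18A1 held 46, COL11A2 37, COL6A2 36, COL4A3 24, COL4A5 8 and COL4A6 7. Most of the window of COL4A1, chr13:110307108-110307407, is shared with that of COL4A2, chr13:110307034-110307333, so their CpG are largely the same ones. The median was 29 in the 9 genes lower in either EZH2 GOF mutant, with a range of 11 to 45, and 23 in the 14 others, with a range of 3 to 46. These ranges cover each other almost entirely. Over 35116 promoters of the same length the median was 14, and 18 of the 23 collagen promoters were at or above it. For collagen genes with several entries the one with the most CpG was used, while the 35116 held every entry. This can raise the collagen numbers relative to those of all promoters. On either strand, GGGCGG was in 45% of all promoters and CCAAT in 34.6%. A match describes the letters in this window and is not a binding site.

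Total counts per sample lay between 32137700 and 44562413, and all 30 collagen genes were tested. Levels are in CPM, read counts scaled to library size after TMM normalization. EZH2 itself, with introduced and endogenous transcripts in a single count, was at 158 ± 4.32 CPM (SD, n = 3) in EZH2 WT, 218 ± 9.61 in Y641F, 173 ± 8.57 in A677G and 208 ± 2.03 in LOF cells, so the lines also differed in the amount of EZH2 transcript. Markers of HEK293 cells were present, with mean levels of VIM between 247 and 270 CPM in the 4 lines. The neurofilament gene NEFL, also a marker of these cells, was at 133 CPM in EZH2 WT, 79.0 in Y641F, 73.1 in A677G and 115 in LOF cells, and its part in the results was not tested. Replicate 1 of Y641F stood apart from its replicates, at 5.60 on the first principal component of all genes where replicates 2 and 3 were at 17.7 and 17.1.

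In replicate 1 of Y641F, 25 of 30 collagen genes, or 83.3%, had the highest level of the 3 replicates, against 37.5% of all genes tested. Replicate 3 of the LOF mutant was highest of its line for 18 collagen genes, or 60.0%, against 35.5% of all genes. The exceptions in Y641F included COL4A4, for which replicate 1 was the lowest. Each collagen gene whose call in Y641F changed without replicate 1 is therefore given with both values.

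**Figure D1:**
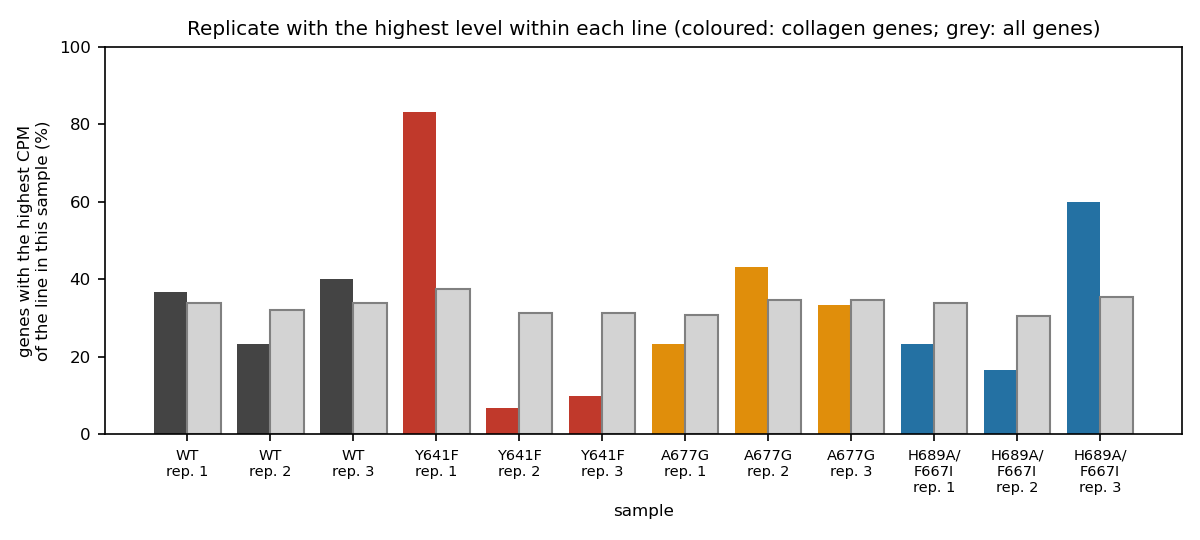
Share of genes, in percent, for which each of the 12 samples had the highest CPM of its own line, with coloured bars for the 30 collagen genes and grey bars for all genes tested (the LOF line is labelled H689A/F667I). Replicate 1 of Y641F stands at 83.3% for collagen genes and 37.5% for all genes.

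Levels between genes were compared as CPM per kilobase of exon. COL6A1, a chain of the beaded filaments of type VI collagen, had the highest level at 15.1 CPM per kilobase over the 12 samples, followed by COL18A1 at 11.1, whose C-terminal part is released as endostatin. COL4A5 at 5.25 and COL6A2 at 5.13 overlapped in their samples, and with the longest transcript as the length COL4A2, at 3.85 per kilobase of exon, moved ahead of both. The fibrillar gene with the highest level was COL2A1, the chain of cartilage fibrils, at 3.65. COL1A1, the main chain of bone and skin collagen, was at only 0.760. The lowest were COL4A3 at 0.0387 and COL12A1 at 0.0164, whose counts per sample ran from 7 to 33 and from 4 to 18.

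Summed over the 30 genes, the level was 63.5 ± 1.19 CPM per kilobase (SD, n = 3) in EZH2 WT, 60.4 ± 5.54 in Y641F, 59.7 ± 1.00 in A677G and 65.8 ± 1.26 in LOF cells. Network collagens together were at 15 ± 0.352 in EZH2 WT and 15 ± 0.382 in LOF cells, and at 13.2 ± 1.37 in Y641F and 13.2 ± 0.200 in A677G. All 3 samples of A677G lay below those of EZH2 WT for the network sum, while replicate 1 of Y641F, at 14.8, touched the WT range. The other types, which made up 61.5% of the collagen level in EZH2 WT and 64.8% in A677G, were at 39.0 ± 0.807 and 38.7 ± 1.16. These sums and shares depend on the length taken, which for COL4A2 was 19271 exon bases against 6446 in its longest transcript.

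**Figure D2:**
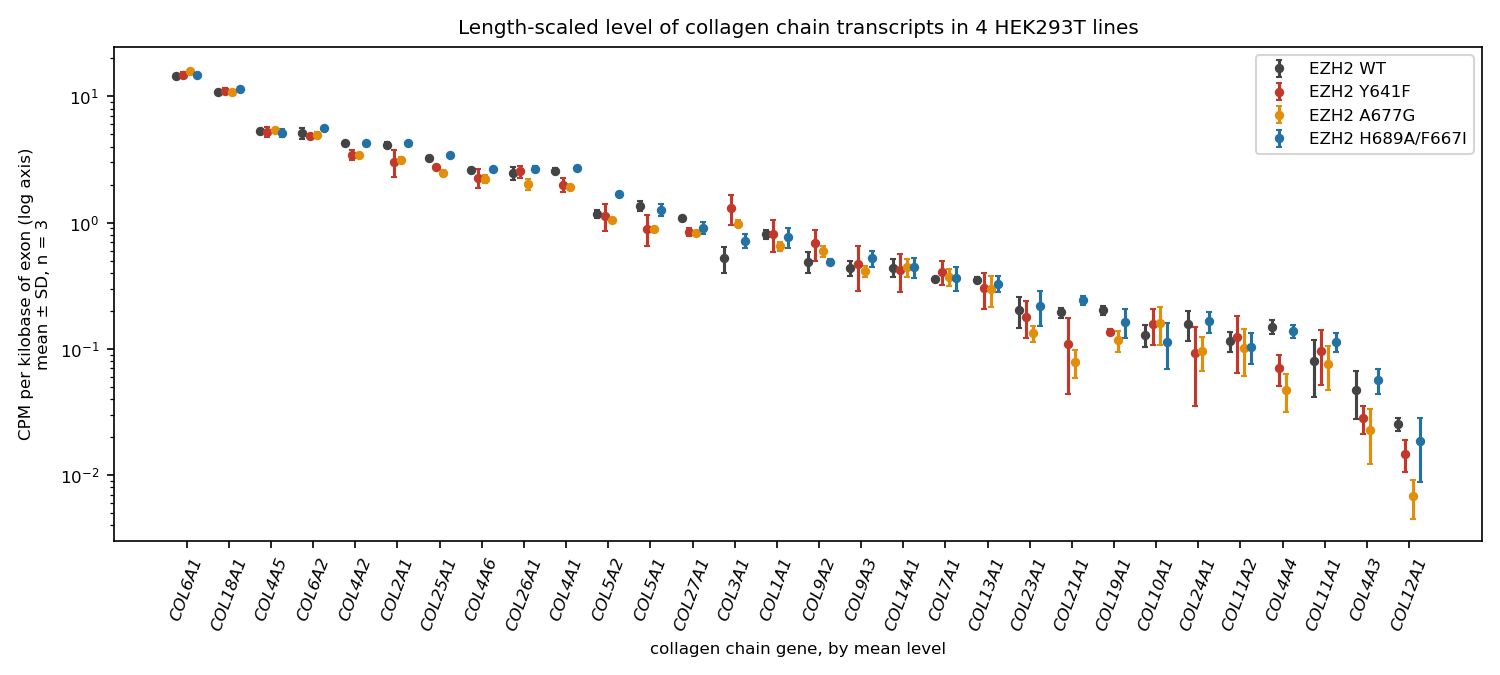
Level of each collagen gene in CPM per kilobase of exon, on a log axis, as mean ± SD of 3 replicates for each of the 4 lines, ordered by the mean over all samples. Levels run from 15.1 for COL6A1 to 0.0164 for COL12A1, and the GOF points of COL4A4 and COL21A1 lie below those of EZH2 WT and the LOF mutant.

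Most of the changes in collagen transcripts were decreases in the EZH2 GOF mutants. At an adjusted p-value under 0.05 by edgeR's quasi-likelihood test, 7 collagen genes were lower and 1 was higher in Y641F than in EZH2 WT, where 5.59% of all genes tested were lower and 2.09% higher. In A677G, 10 were lower and 1 was higher, where 6.48% of all genes were lower and 2.07% higher, or 924 and 295 genes. The genes tested leave out 175 without a count in any A677G sample or in any LOF sample, none a collagen gene. With these kept, 1082 of 14438 genes were lower in A677G and 312 higher, with 10 and 1 collagen genes among them. Without replicate 1 of Y641F, 9 collagen genes were lower in that mutant. The 7 genes lower in Y641F were all lower in A677G too. They were the network genes COL4A1, COL4A2 and COL4A4, the fibrillar genes COL2A1, COL5A1 and COL27A1, and COL25A1, a membrane-bound collagen. Both comparisons use the same EZH2 WT samples. The median log2 fold change of the 30 genes was -0.12 in Y641F and -0.27 in A677G, against 0.00 for all genes tested. In these 2 mutants 19 and 23 of the 30 values were below 0, against 6984 and 6889 of all 14263 genes.

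By type, the 7 network genes had 3 lower in each GOF mutant, with medians of -0.30 and -0.29. The 9 fibrillar genes had 3 lower and 1 higher in each, with medians of -0.04 in Y641F and -0.33 in A677G. Of the 14 other genes, 1 was lower in Y641F and 4 in A677G, with medians of -0.06 and -0.16. The families thus held both called and uncalled members, and they are described gene by gene.

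**Figure D3:**
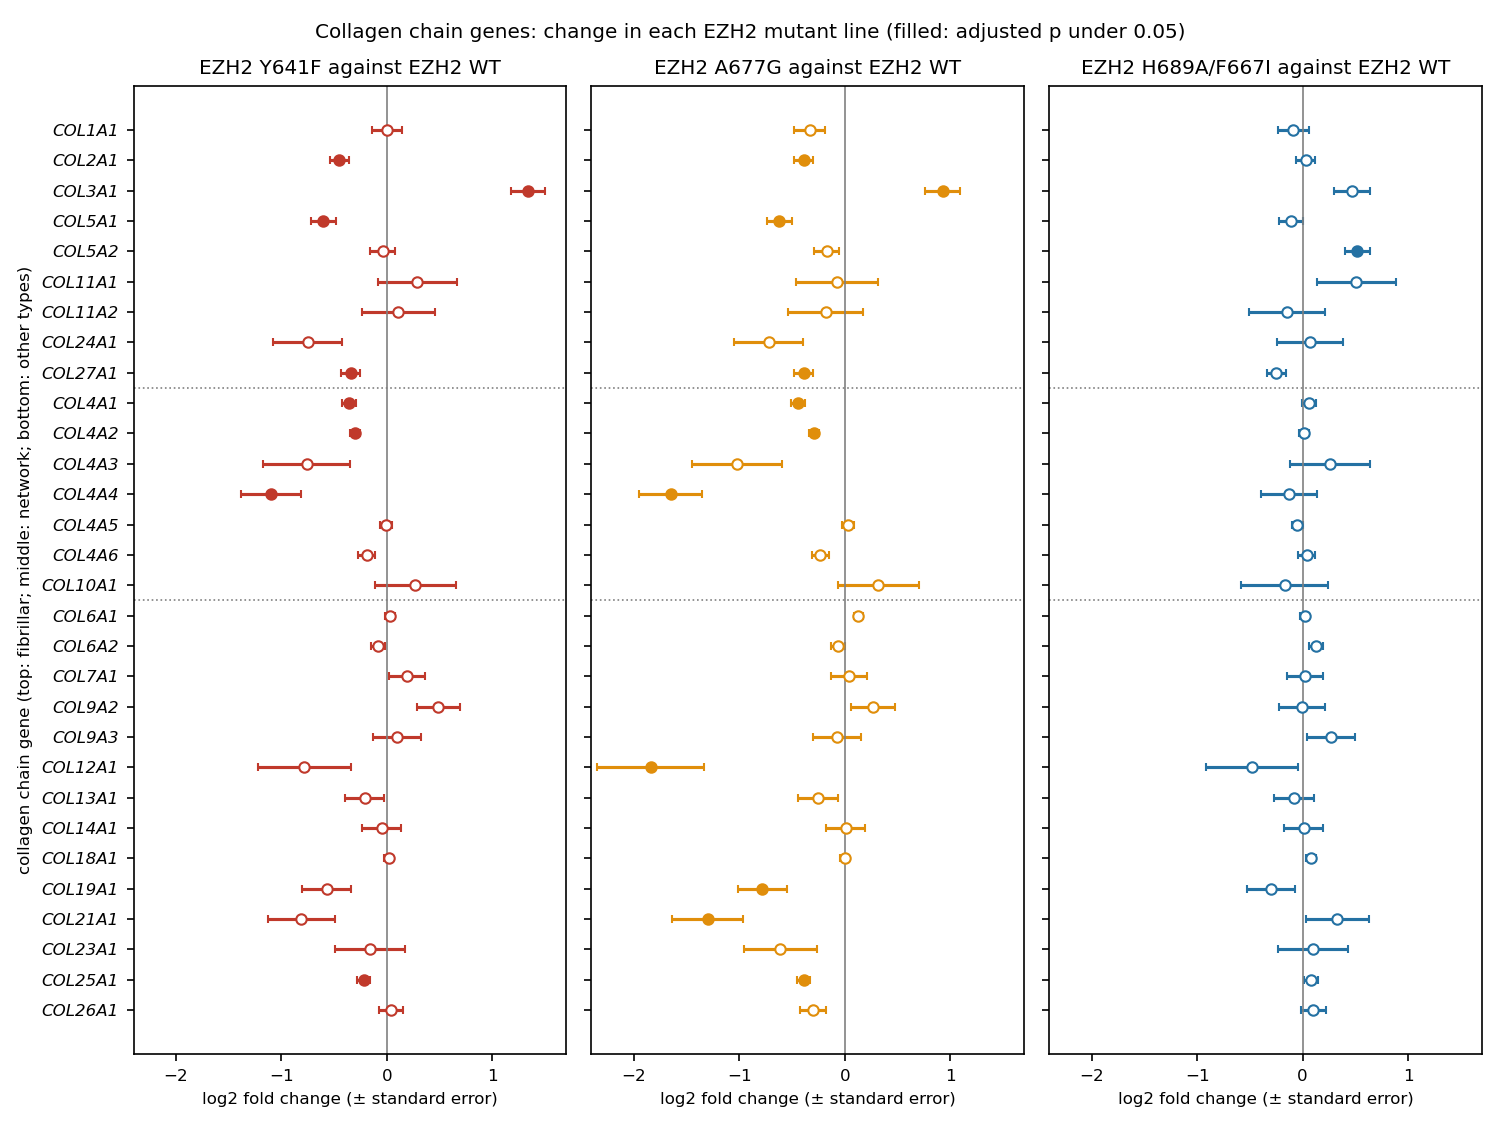
Log2 fold change against EZH2 WT with its standard error for the 30 collagen genes in the Y641F, A677G and LOF lines, with fibrillar genes at the top, network genes in the middle and other types at the bottom. Filled points passed an adjusted p-value of 0.05, and they lie left of 0 in both GOF panels apart from COL3A1, at 1.34 and 0.93.

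COL4A1 and COL4A2 encode the chains of the type IV collagen found in nearly all basement membranes. COL4A1 (ENSG00000187498.16, chr13:110148963-110307157) was at 39.3, 35.9 and 37.9 CPM in EZH2 WT, 33.3, 26.5 and 28.0 in Y641F, 28.3, 26.6 and 28.6 in A677G and 38.7, 39.7 and 39.8 in LOF cells. Every GOF sample was below every WT and LOF sample. This was a log2 fold change of -0.36 in Y641F (standard error 0.0654, adjusted p = 1.84e-04) and -0.44 in A677G (standard error 0.0658, adjusted p = 1.04e-05). COL4A2 (ENSG00000134871.19, chr13:110305812-110513209) was at 83.2, 81.1 and 80.6 CPM in EZH2 WT, 73.6, 64.0 and 61.7 in Y641F, 67.1, 67.8 and 65.0 in A677G and 81.7, 80.9 and 83.9 in LOF cells. The GOF samples were again all below the others. On the log2 scale the change was -0.30 in Y641F (standard error 0.0492, adjusted p = 5.18e-05) and -0.29 in A677G (standard error 0.0492, adjusted p = 6.5e-05).

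The chains of the mature glomerular basement membrane are encoded by COL4A3, COL4A4 and COL4A5. COL4A4 (ENSG00000081052.14, chr2:227002714-227164453) was at 2.03, 1.60 and 1.69 CPM in EZH2 WT, 0.571, 0.945 and 0.969 in Y641F, 0.538, 0.762 and 0.384 in A677G and 1.60, 1.45 and 1.83 in LOF cells. All GOF values were under 1 CPM, and no WT or LOF value was. Relative to EZH2 WT the log2 change was -1.65 in A677G (standard error 0.298, adjusted p = 1.79e-04) and -1.10 in Y641F (standard error 0.283, adjusted p = 0.0101), the largest decreases among network genes. In Y641F the call was lost without replicate 1 of that line (-0.89, adjusted p = 0.0595) or without replicate 1 of EZH2 WT (-0.99, adjusted p = 0.0679).

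COL4A3 was at 0.460, 0.854 and 0.422 CPM in EZH2 WT, 0.309, 0.446 and 0.284 in Y641F, 0.426, 0.172 and 0.247 in A677G and 0.866, 0.662 and 0.559 in LOF cells. Its GOF and WT ranges overlapped, and its log2 fold changes of -0.76 and -1.02 did not pass the test (adjusted p = 0.322 and 0.145), with standard errors of 0.412 and 0.424. Its exons overlap by 838 bases with those of a lncRNA on the opposite strand, MFF-DT, and the strand setting of the counting is not given in the sources used here.

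COL4A5 and COL4A6, the pair on the X chromosome, were measured with more counts and moved less. COL4A5 was at 65.8, 59.6 and 62.6 CPM in EZH2 WT, 68.3, 58.7 and 59.2 in Y641F, 63.1, 63.9 and 64.6 in A677G and 55.9, 62.0 and 64.1 in LOF cells. Its log2 fold changes were -0.01, 0.03 and -0.05, with standard errors of 0.0547, 0.0546 and 0.0551. COL4A6 was at 23.7, 25.4 and 23.2 CPM in EZH2 WT, 25.1, 18.7 and 19.4 in Y641F, 22.2, 19.9 and 19.6 in A677G and 25.2, 24.2 and 25.1 in LOF cells. Its values were -0.19 in Y641F (adjusted p = 0.166) and -0.23 in A677G (adjusted p = 0.0809). Without replicate 1 of Y641F, the sample at 25.1, COL4A6 was lower in that mutant at -0.34 (adjusted p = 0.00199).

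Within the pairs, the level per kilobase of COL4A1 was 0.607 ± 0.0225 (SD, n = 3) of that of COL4A2 in EZH2 WT, 0.579 ± 0.0299 in Y641F, 0.549 ± 0.0319 in A677G and 0.630 ± 0.0127 in LOF cells. The ratio of COL4A5 to COL4A6 was 2.04 ± 0.178 in EZH2 WT, 2.32 ± 0.175 in Y641F, 2.44 ± 0.189 in A677G and 1.91 ± 0.157 in LOF cells. In both pairs the SD interval of Y641F overlapped those of A677G and EZH2 WT, while those of A677G and EZH2 WT did not overlap. The ratio of COL4A3 to COL4A4, from few counts, was 0.324 ± 0.164 in EZH2 WT and 0.419 ± 0.124 in Y641F. It was 0.533 ± 0.282 in A677G and 0.418 ± 0.116 in LOF cells. The size of each ratio depends on the exon lengths taken, which are the same for all lines. COL10A1, the short network collagen of growth plate cartilage, was between 0.279 and 0.830 CPM in all samples and passed no test.

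Markers of other cells that make basement membranes were looked at beside the network genes. Of 5 endothelial markers only KDR, a receptor of vascular endothelial growth factor, was measured, and PECAM1, VWF, CDH5 and TEK were not analysed here. KDR was at 0.673 to 0.784 CPM in EZH2 WT, 0.105 to 0.428 in Y641F, 0.165 to 0.404 in A677G and 0.497 to 0.611 in LOF cells. Like COL4A4 it was lower in every GOF sample, by a log2 fold change of -1.41 in Y641F (adjusted p = 0.0276) and -1.24 in A677G (adjusted p = 0.0494). These calls were lost in 5 and 8 of 17 alternative fits, with adjusted p up to 0.137 and 0.216. KDR had too few counts for the alternative that needs at least 10 in every sample, so its values rest on few reads. The epithelial markers EPCAM, CDH1, KRT8 and KRT18 summed to 39.2 to 43.1 CPM in EZH2 WT, 39.4 to 46.8 in Y641F, 35.8 to 41.9 in A677G and 46.0 to 48.4 in LOF cells, and none passed the test against EZH2 WT. KRT19 was not analysed here. The part of these cells in the results was not tested.

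The fibrillar genes moved in both directions. COL2A1 (ENSG00000139219.19, chr12:47972967-48004554) was at 29.1, 26.9 and 26.9 CPM in EZH2 WT, 25.7, 17.4 and 17.5 in Y641F, 20.3, 20.7 and 22.2 in A677G and 28.8, 28.3 and 27.7 in LOF cells. Replicate 1 of Y641F was near the WT level, and the other GOF samples were well below it. The log2 fold change was -0.45 in Y641F (standard error 0.0901, adjusted p = 7.31e-04) and -0.39 in A677G (standard error 0.0899, adjusted p = 0.00290). With DESeq2 the call in A677G was lost (adjusted p = 0.0586).

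COL5A1 encodes a chain of type V collagen, a minor fibril component known to set fibril diameter. COL5A1 (ENSG00000130635.17, chr9:134641803-134844843) was at 15.4, 16.6 and 13.6 CPM in EZH2 WT, 13, 7.62 and 9.39 in Y641F, 10.1, 9.46 and 10.2 in A677G and 12.5, 14.2 and 15.6 in LOF cells. The GOF samples were all below those of EZH2 WT, although replicate 1 of Y641F was within the LOF range. This was a log2 fold change of -0.60 in Y641F (standard error 0.120, adjusted p = 6.98e-04) and -0.62 in A677G (standard error 0.120, adjusted p = 4.24e-04). COL27A1 (ENSG00000196739.15, chr9:114155537-114312511), a fibrillar collagen of developing cartilage, was at 15.5, 14.3 and 15.5 CPM in EZH2 WT, 12.6, 10.9 and 12.2 in Y641F, 11.5, 11.6 and 11.4 in A677G and 13, 11.3 and 13.9 in LOF cells. All 3 mutants lay below EZH2 WT. The decreases were -0.34 in Y641F (standard error 0.0902, adjusted p = 0.0123) and -0.39 in A677G (standard error 0.0905, adjusted p = 0.00362), and the LOF value of -0.25 did not pass the test (adjusted p = 0.379). In Y641F the call was lost without replicate 1 of EZH2 WT (adjusted p = 0.0628) or replicate 2 of Y641F (adjusted p = 0.0727).

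COL3A1, the fibrillar collagen of vessels and other stretchable tissues, was the only collagen gene that rose in the EZH2 GOF mutants in the reported fits. COL3A1 (ENSG00000168542.17, chr2:188974373-189012746) was at 3.49, 2.69 and 4.37 CPM in EZH2 WT, 11.6, 7.49 and 7.42 in Y641F, 7.11, 6.41 and 6.39 in A677G and 4.19, 4.99 and 5.43 in LOF cells. The GOF samples were all above the others. On the log2 scale the change was 1.34 in Y641F (standard error 0.162, adjusted p = 2.55e-07) and 0.93 in A677G (standard error 0.165, adjusted p = 1.48e-04). For LOF cells the value was 0.47 (adjusted p = 0.379). Fibroblast markers were looked at beside it, since fibroblasts make much COL3A1. Of 8 markers, PDGFRA, PDGFRB, LUM and FBLN1 were measured, and DCN, THY1, FAP and POSTN were not analysed here. Their summed level was 29.5 to 33.1 CPM in EZH2 WT, 36.0 to 40.5 in Y641F, 30.8 to 35.2 in A677G and 30.7 to 33.7 in LOF cells. LUM rose by 0.90 (adjusted p = 0.0218) and FBLN1 by 0.27 (adjusted p = 0.00569) in Y641F, with values of 0.02 and 0.13 in A677G. The call of LUM was lost in 5 of 18 alternative fits, with adjusted p up to 0.176, and that of FBLN1 in 1. PDGFRA was at -0.11 and -0.12 and PDGFRB at -0.81 and -0.75 in the 2 mutants, and neither passed the test. Their part in the result was not tested.

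COL5A2, which encodes the partner chain of COL5A1, is the neighbour of COL3A1 on chromosome 2, on the opposite strand at chr2:189031898-189225312. It was at 8.69, 7.89 and 9.14 CPM in EZH2 WT, 10.5, 7.54 and 6.86 in Y641F, 7.67, 7.81 and 7.40 in A677G and 11.8, 12.5 and 12.6 in LOF cells. It stood highest in the LOF samples, above all others. Its difference from EZH2 WT was -0.04 on the log2 scale in Y641F and -0.17 in A677G (adjusted p = 0.902 and 0.489). The ratio of COL3A1 to COL5A2 per kilobase was 0.441 ± 0.0747 (SD, n = 3) in EZH2 WT, 1.15 ± 0.0638 in Y641F, 0.942 ± 0.0579 in A677G and 0.428 ± 0.0410 in LOF cells. The ratio of COL5A1 to COL5A2 was 1.17 ± 0.200 in EZH2 WT, 0.791 ± 0.119 in Y641F, 0.853 ± 0.0562 in A677G and 0.750 ± 0.0582 in LOF cells. The ratio of the type V chains was thus lower than in any EZH2 WT sample in all mutant samples, with COL5A1 lower in the GOF mutants and COL5A2 higher in LOF cells.

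COL1A1 was at 8.01, 6.94 and 7.0 CPM in EZH2 WT, 9.72, 6.15 and 6.10 in Y641F, 6.35, 5.70 and 5.43 in A677G and 6.33, 6.11 and 8.29 in LOF cells. No comparison passed the test, with adjusted p = 0.190 in A677G. COL11A1 and COL11A2, minor cartilage fibril chains, were between 0.337 and 1.38 CPM in all samples and passed no test.

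**Figure D4:**
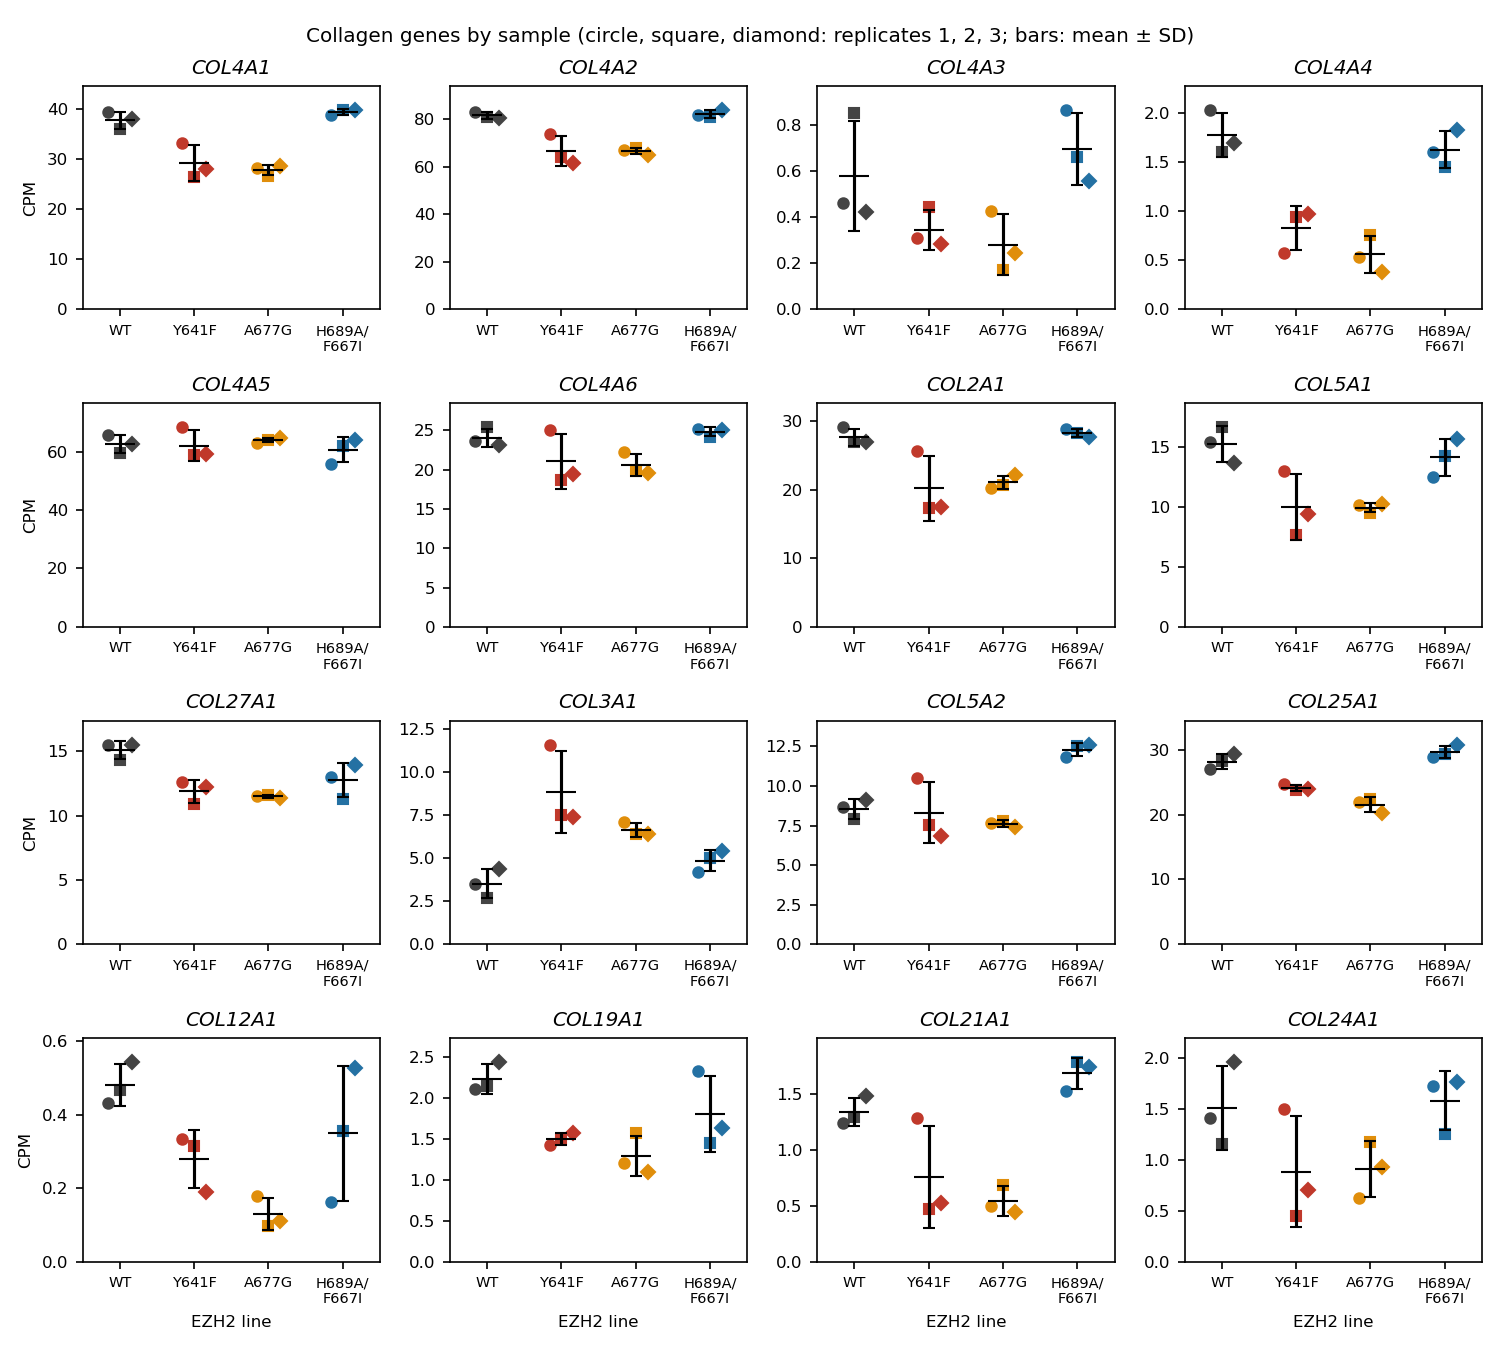
CPM of 16 collagen genes in each of the 12 samples, with a symbol for each replicate and bars for the mean ± SD of 3 replicates, all axes starting at 0. COL4A1, COL4A2 and COL4A4 are lower in both GOF mutants, COL3A1 is higher in both, COL5A2 is highest in LOF cells, and the circle of Y641F, replicate 1, is often above its squares and diamonds.

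Among the other types, COL25A1, a transmembrane collagen of neurons known from amyloid plaques, was lower in both EZH2 GOF mutants. COL25A1 (ENSG00000188517.17, chr4:108808725-109302752) was at 27.0, 28.3 and 29.3 CPM in EZH2 WT, 24.7, 23.8 and 24.0 in Y641F, 22.0, 22.4 and 20.2 in A677G and 28.9, 29.4 and 30.8 in LOF cells. Every A677G sample was below every Y641F sample, and all of these were below the EZH2 WT and LOF samples, which overlapped. Relative to EZH2 WT the log2 change was -0.39 in A677G (standard error 0.0643, adjusted p = 5.1e-05) and -0.22 in Y641F (standard error 0.0637, adjusted p = 0.0251). The call in Y641F was lost with only the groups compared in the fit (adjusted p = 0.0545) and in 4 of the 6 fits that left out a replicate, with adjusted p up to 0.108.

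Of the FACIT collagens, which attach to the surface of fibrils, 3 passed the test in A677G. COL21A1 was at 1.24, 1.29 and 1.48 CPM in EZH2 WT, 1.28, 0.473 and 0.520 in Y641F, 0.494, 0.688 and 0.439 in A677G and 1.52, 1.78 and 1.74 in LOF cells. Replicate 1 of Y641F was within the WT range, and the other GOF samples were far below. The log2 fold change was -1.30 in A677G (standard error 0.332, adjusted p = 0.00826) and -0.81 in Y641F (adjusted p = 0.125), or -1.42 (adjusted p = 0.00412) without replicate 1 of Y641F. COL19A1, a collagen of basement membrane zones, was at 2.11, 2.15 and 2.44 CPM in EZH2 WT, 1.43, 1.5 and 1.58 in Y641F, 1.21, 1.57 and 1.10 in A677G and 2.33, 1.45 and 1.64 in LOF cells. The GOF samples were below EZH2 WT, while the LOF samples spanned both. This was a log2 fold change of -0.78 in A677G (adjusted p = 0.0280) and -0.57 in Y641F (adjusted p = 0.141). The call in A677G was lost in 5 of the 6 fits that left out a replicate, with adjusted p up to 0.125. COL19A1 had 40 to 86 counts per sample, and its exons overlap by 85 bases with those of LMBRD1 on the opposite strand. Its neighbour COL9A1 was not analysed here.

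COL12A1, a fibril-associated chain of tendon and muscle, was at 0.433, 0.466 and 0.543 CPM in EZH2 WT, 0.333, 0.315 and 0.189 in Y641F, 0.179, 0.0983 and 0.110 in A677G and 0.162, 0.357 and 0.528 in LOF cells. These are 4 to 18 counts per sample. On the log2 scale the change was -1.84 in A677G (standard error 0.508, adjusted p = 0.0153) and -0.78 in Y641F (adjusted p = 0.356), and the call in A677G was lost in 3 of the 6 fits that left out a replicate, with adjusted p up to 0.0738. None of these genes differed between the mutants in the direct test of Y641F against A677G, with adjusted p = 0.841 for COL21A1, 0.918 for COL19A1 and 0.747 for COL12A1.

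Type VI collagen forms beaded microfibrils around cells. COL6A1 was at 83.7, 77.9 and 81.0 CPM in EZH2 WT, 86.1, 82.2 and 79.1 in Y641F, 85.7, 90.7 and 88.3 in A677G and 81.7, 82.1 and 82.8 in LOF cells. The A677G samples were all above those of EZH2 WT, with a log2 fold change of 0.13 (standard error 0.0431, adjusted p = 0.0644), which passed the threshold in 5 of 18 alternative fits. COL6A2 was at 27.4, 29.9 and 24.6 CPM in EZH2 WT, 26.3, 26.0 and 25.2 in Y641F, 24.9, 26.1 and 28.0 in A677G and 29.5, 29.9 and 30.6 in LOF cells. Its values against EZH2 WT were -0.08, -0.06 and 0.13, and none passed the test. COL18A1 was between 88.9 and 98.9 CPM in all samples, with log2 changes of 0.02 in Y641F, 0.00 in A677G and 0.08 in LOF cells and a standard error of 0.0433 to 0.0434. The exons of COL18A1 overlap by 1563 bases with those of SLC19A1 on the opposite strand.

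The remaining genes passed the test in no comparison. COL7A1, the anchoring fibril chain of skin, and the FACIT genes COL9A2, COL9A3 and COL14A1 were between 1.66 and 5.71 CPM, and COL13A1 and COL23A1, membrane-bound collagens, between 0.494 and 4.71. COL26A1 was between 5.59 and 8.91. Among them the value nearest to the threshold was that of COL26A1 in A677G, at -0.30 (standard error 0.120, adjusted p = 0.129).

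The EZH2 LOF mutant differed from EZH2 WT in 1 collagen gene. COL5A2 was higher by 0.52 on the log2 scale (standard error 0.116, adjusted p = 0.0295), where 0.140% of all genes tested were higher and 0.161% lower, or 20 and 23 genes. With the genes at 0 kept in the test, which include no collagen gene, 30 of 14438 were higher and 139 lower. The call was lost in each of the 6 fits with a replicate left out, with log2 fold changes of 0.46 to 0.57 and adjusted p of 0.0575 to 0.244, and with library totals in place of TMM (adjusted p = 0.0663). No collagen gene was lower at the adjusted threshold by edgeR or in any alternative fit. At an unadjusted p under 0.05 there were 3 collagen genes, against 1184 of all 14263 genes. Of these, COL27A1 was lower, and COL3A1 and COL5A2 were higher. The median log2 fold change of the 30 genes was 0.03.

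Against the LOF mutant, the mean of the 2 EZH2 GOF mutants was lower in 12 collagen genes and higher in 1. Over all genes tested, 8.75% were lower and 3.81% higher, or 1248 and 544 genes. With the genes at 0 kept these were 1336 and 607 of 14438. This comparison uses the same GOF samples as those above and is not a second measurement of them. By type, 4 fibrillar, 5 network and 3 other genes were lower. Of the 12 genes, 6 were also lower in both GOF mutants against EZH2 WT, namely COL2A1, COL4A1, COL4A2, COL4A4, COL5A1 and COL25A1, and COL21A1 passed the test against EZH2 WT in A677G and not in Y641F. Their log2 fold changes against the LOF mutant were -0.46 for COL2A1, -0.46 for COL4A1, -0.30 for COL4A2, -1.24 for COL4A4, -0.50 for COL5A1, -0.38 for COL25A1 and -1.38 for COL21A1, with adjusted p between 1.19e-07 and 6.52e-04. COL27A1, also lower in both GOF mutants against EZH2 WT, did not pass the test against the LOF mutant. Its value there was -0.11 (adjusted p = 0.414).

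Another 5 genes were lower against the LOF mutant without being called against EZH2 WT. COL5A2, at -0.63 (standard error 0.0988, adjusted p = 1.35e-05), had its highest level in LOF cells. COL4A6 was at -0.25 (adjusted p = 0.0118) and COL6A2 at -0.20 (adjusted p = 0.0140), and each lost its call without either of 2 LOF replicates, with adjusted p up to 0.0753 and 0.0781. COL4A3 was at -1.15 (adjusted p = 0.0213) and lost its call in 3 of the 9 fits that left out a replicate, with adjusted p up to 0.164. COL24A1, a fibrillar gene of developing bone at 0.446 to 1.96 CPM, was at -0.81 (adjusted p = 0.0497), and its call was lost in 7 of the 9 fits that left out a replicate and in 5 of 11 other alternatives. Against EZH2 WT, COL24A1 was at -0.75 in Y641F (adjusted p = 0.187) and at -1.36 (adjusted p = 0.00884) without replicate 1, and at -0.72 in A677G (adjusted p = 0.194). COL3A1 was the gene that was higher, at 0.66 (standard error 0.140, adjusted p = 8.65e-04).

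Between Y641F and A677G no collagen gene passed the test by edgeR or in any alternative fit, where 0.0140% of all genes tested were lower and 0.0701% higher, or 2 and 10 genes. With the genes at 0 kept these were 15 and 163 of 14438. At an unadjusted p under 0.05 there were 5, against 985 of all 14263 genes, COL1A1, COL3A1, COL6A1, COL25A1 and COL26A1. The largest of their differences was that of COL3A1, at 0.41 with a standard error of 0.150 (adjusted p = 0.568). Of the 30 differences, 22 were above 0, with a median of 0.14, against 7132 of all 14263 genes and a median of 0.00. Replicate 1 of Y641F, highest of its line in 25 collagen genes, is among the samples behind these differences.

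Genes of the collagen pathway were taken from lists of processing enzymes, receptors and basement membrane partners. Of 35 genes for collagen maturation, from prolyl hydroxylation to cross-linking, 32 were tested. In Y641F 4 were lower, where 5.59% of all genes tested were lower. In A677G 6 were lower and 2 higher, against 6.48% and 2.07% of all genes. None passed in LOF cells, where 1 had an unadjusted p under 0.05, against 1184 of all 14263 genes. The list medians were -0.04, -0.03 and -0.01. PXDN, the peroxidase that forms sulfilimine cross-links in type IV collagen, was at 58.9, 55.8 and 52.4 CPM in EZH2 WT, 42.9, 37.3 and 37.7 in Y641F, 36.7, 37.9 and 41.8 in A677G and 51.9, 56.2 and 51.7 in LOF cells. The GOF samples did not reach the others, with log2 fold changes of -0.50 (adjusted p = 1.28e-07) and -0.52 (adjusted p = 5.1e-08).

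Also lower in both GOF mutants were the proteinases TLL1, which trims the C-terminal propeptide, at -1.02 and -1.38, and ADAMTS2, which removes the N-terminal propeptide, at -0.50 and -0.75. The galactosyltransferase COLGALT2 was at -0.62 and -0.72. Adjusted p-values of these 3 genes were between 6.27e-05 and 0.00812. Without replicate 3 of Y641F the maturation genes lower in that mutant were 2, with the calls of TLL1 (adjusted p = 0.0536) and ADAMTS2 (adjusted p = 0.0736) lost, and without replicate 1 they were 5, with LOX added at -0.66 (adjusted p = 0.00616). SERPINH1, the collagen chaperone HSP47, had values of -0.01, 0.10 and 0.04 in Y641F, A677G and the LOF mutant, and P4HB, a subunit of prolyl hydroxylase, -0.05, -0.02 and 0.02. Neither passed the test.

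Of 10 collagen receptor genes, 6 were tested, and 1 was lower and 1 higher in each GOF mutant, where 5.59% of all genes were lower and 2.09% higher in Y641F and 6.48% and 2.07% in A677G. ITGA2, the alpha chain of a collagen-binding integrin, fell by 0.39 (adjusted p = 0.00500) in Y641F and by 0.28 (adjusted p = 0.0496) in A677G on the log2 scale. MRC2, an endocytic receptor for collagen, rose by 0.19 (adjusted p = 0.0463) and 0.23 (adjusted p = 0.0116). Of 18 alternative fits, 6 lost the call of ITGA2 in A677G, with adjusted p up to 0.227, and 8 that of MRC2 in Y641F, with adjusted p up to 0.224. Of 16 basement membrane partners, 14 were tested, with 1 lower and 2 higher in Y641F and 2 lower and 1 higher in A677G, beside the same shares of all genes. Without replicate 1 of Y641F, 3 were lower and 1 was higher in that mutant. NID2, a nidogen that links laminin to type IV collagen, was at 35.5, 35.4 and 36.0 CPM in EZH2 WT, 28.7, 23.3 and 22.9 in Y641F, 22.6, 25.1 and 23.8 in A677G and 37.9, 36.8 and 37.3 in LOF cells. Its log2 fold changes were -0.51 (adjusted p = 1.33e-06) and -0.58 (adjusted p = 1.39e-07), and its paralogue NID1 had values of 0.01 and -0.06. AGRN, a heparan sulfate proteoglycan, rose by 0.25 (adjusted p = 3.45e-05) and 0.19 (adjusted p = 0.00120). No receptor or partner gene passed in LOF cells, where 0 and 1 had an unadjusted p under 0.05, against 1184 of all 14263 genes. The medians of the receptor list were -0.07 and -0.06 in the GOF mutants, and those of the partner list 0.00 and -0.05.

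**Figure D5:**
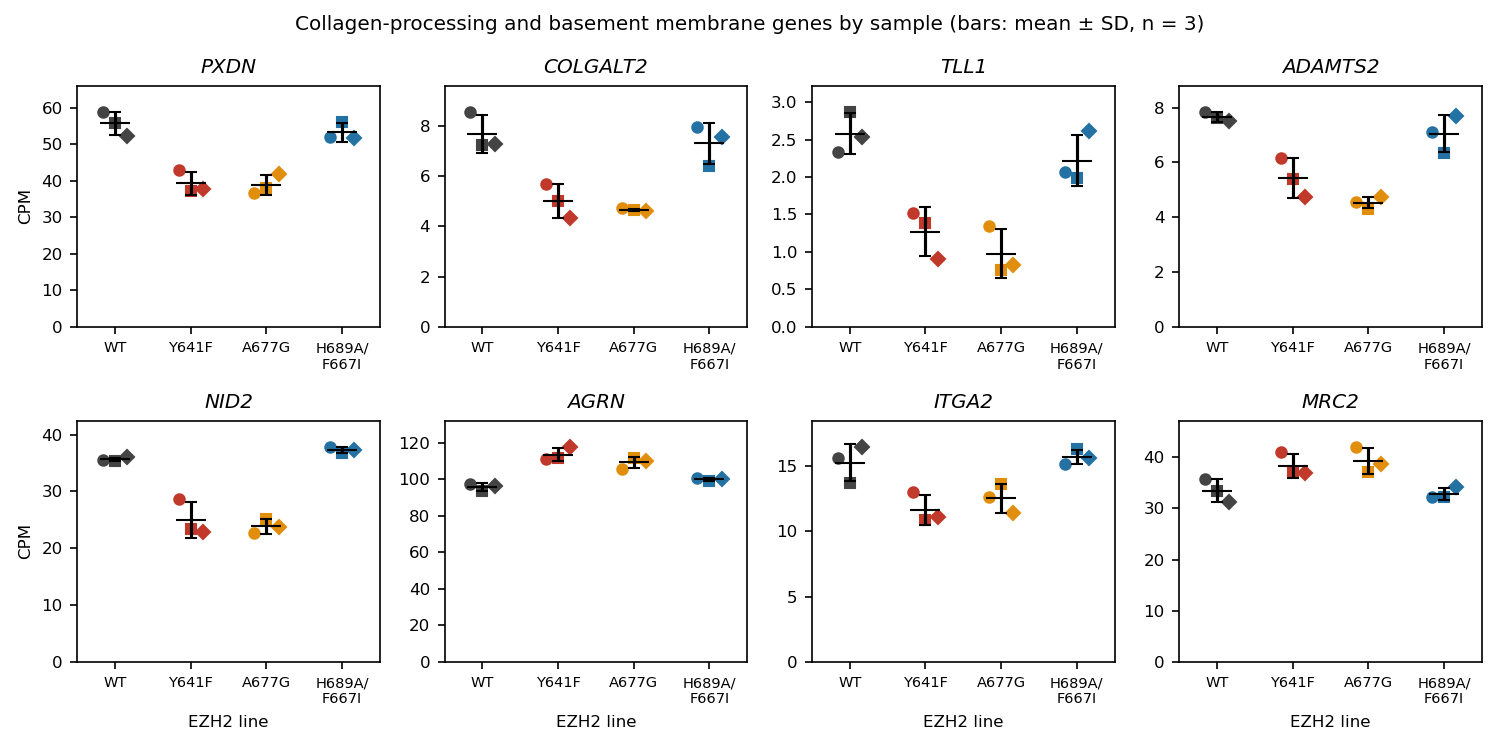
CPM of 8 collagen-processing, receptor and basement membrane genes in each of the 12 samples, with bars for the mean ± SD of 3 replicates and axes starting at 0. PXDN, COLGALT2, TLL1, ADAMTS2, NID2 and ITGA2 are lower and AGRN and MRC2 higher in both GOF mutants.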

How the data were processed

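RNA-Seq of 12 samples was analysed, 3 of each of 4 HEK293T lines. Whole-number counts for each gene symbol were deposited by the authors, without normalization. Per the methods and the submitters' processing notes, reads were trimmed with Trim Galore 0.6.5, aligned to GRCh38 with STAR 2.7.9a and quantified with Salmon 1.2.0. The step to counts per symbol and its strand setting are not given in the sources used here. Of 14438 genes, 175 without a count in any A677G sample or in any LOF sample were left out, and 14263 were tested.

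Counts were TMM-normalized and fitted in R 4.3.3 with edgeR 4.0.16, using the quasi-likelihood test on all samples with 1 coefficient per line, in place of the exact test of the study. P-values were Benjamini-Hochberg adjusted over all genes tested, at a threshold of 0.05. The common biological coefficient of variation was 0.0471. P-values measure the spread between replicates of a line, and each genotype had 1 line. Lengths and positions are from GENCODE, and promoters from RefSeq. Of the symbols, 13272 matched a GENCODE name, 809 an older symbol and 357 none. Principal components used log2 CPM with a prior count of 2.

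Genes are named when past the threshold in any of the 5 comparisons, or when of type I, III, IV, V or VI, a member of a neighbouring pair or among the 3 highest per kilobase, and others are given by ranges. From the pathway lists, genes past the threshold in both GOF mutants are named, and SERPINH1, P4HB and NID1 were added after their values were seen. The members and lists were chosen with earlier results of these data known. Alternatives were the exact test, DESeq2 1.42.0, limma 3.58.1 voom with quality weights, upper-quartile factors, library totals, no filter, at least 10 counts in every sample, genes at 0 kept, only the groups compared, GC trend removed, replicate number as a block, and each replicate left out. The fit was tested on simulated data. The results of 2 marker genes are not reported here.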

Additional observations from a re-analysis of the deposited data

How the results depend on the processing

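Over the collagen genes and the 5 comparisons, no value with a call changed direction under any alternative. Under the 12 alternatives other than left-out replicates, the collagen genes lower in Y641F numbered 6 to 9 (7 as reported), in A677G 9 to 12 (10), and in the GOF mutants against the LOF mutant 11 to 12 (12, from 11 alternatives, as the exact test compares only pairs of lines). The alternative with no filter tested the same 14263 genes as the reported fit and gave the same calls. It is therefore no check, here or among the alternative fits counted elsewhere. The genes higher in A677G became 2, by adding COL6A1, with DESeq2, limma voom, only the groups compared, GC trend removed, and GC trend removed with the replicate block. The genes higher in LOF cells became 0 with library totals, where COL5A2 was lost. With a replicate left out, the genes lower numbered 5 to 9 in Y641F, 8 to 9 in A677G and 9 to 12 against the LOF mutant. Those higher in Y641F numbered 1 to 2, with COL9A2 added without replicate 2 of Y641F, and those higher in LOF cells were 0 throughout. Maturation genes lower numbered 2 to 5 in Y641F (4 as reported) and 4 to 6 in A677G (6, with LOX lost in 9 of 18 fits), and 1 was higher in Y641F in 7 of 18 fits, CRTAP in 6 of them and SEC23A in 1. The cause of these changes was not tested.

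The lines share replicate numbers 1 to 3, but deviations of samples with the same number correlated only between -0.0557 and 0.0501, so the numbers were not taken to pair samples. With the replicate block, the collagen genes called were 7 lower and 1 higher for Y641F, and 10 lower and 1 higher for A677G. Depth limits COL4A3, COL10A1 and COL12A1, with fewer than 10 counts in at least 1 sample. No scaling moved the median of all genes by more than 0.0152 (log2).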

Other observations

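Genes with a collagen-like stretch that do not carry a collagen chain symbol were looked at with a list of 20 chosen after the data were seen, of which 10 were tested. In Y641F 2 were lower, and in A677G 4, where 5.59% and 6.48% of all genes tested were lower, with medians of -0.24 and -0.22. These counts ran from 1 to 4 and from 2 to 4 over 18 alternatives. COLEC12, a scavenger receptor with a collagen-like domain, was at 33.5 ± 1.73 CPM (SD, n = 3) in EZH2 WT, 24.5 ± 2.92 in Y641F, 26.0 ± 0.242 in A677G and 32.3 ± 1.78 in LOF cells. Its log2 fold changes were -0.45 (adjusted p = 1.95e-05 by edgeR) and -0.36 (adjusted p = 3.12e-04). SCARA3, a related scavenger receptor, was at -0.60 (adjusted p = 0.0159) and -0.73 (adjusted p = 0.00285). C1QL1 and C1QTNF1, secreted proteins of the C1q family, were lower in A677G at -0.60 (adjusted p = 0.0480) and -0.99 (adjusted p = 0.0331), with -0.59 (adjusted p = 0.0554) and -0.86 (adjusted p = 0.0714) in Y641F. None passed in LOF cells, and 0 had an unadjusted p under 0.05 there, against 1184 of all 14263 genes.

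Replicate 1 of Y641F, highest of its line in most collagen genes, was also the highest for 12 of 14 basement membrane partners, 5 of 6 collagen receptors, 7 of 10 collagen-like genes and 17 of 32 maturation genes. On the second principal component it was at -19.2, with replicates 2 and 3 at 2.25 and -0.785, and replicate 3 of the LOF mutant was at -10.1.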
